A study of Mus musculus with 405 samples.

Results

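Neonicotinoids are insecticides that bind the nicotinic acetylcholine receptor. In a transcriptional screen of environmental chemicals in mouse cortical cultures, 5 of them were applied: Acetamiprid, Clothiandin (the spelling of the label for clothianidin), Imidacloprid, Thiacloprid and Thiamethoxam. They were found by the chemical name that opens each sample label. Dinotefuran and nitenpyram, also neonicotinoids, were not analysed here. The 5 chemicals gave 5 of the 393 libraries in the table of the screen, 1 library each, so no difference of a single chemical has a replicate check.

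Every culture came from the cortex of hybrid embryos of C57BL/6J dams and CAST/EiJ males (strain CAST x C57BL6), which the labels date at embryonic day 15. Cultures received a single chemical on day 7 in vitro for 24 h, and all 5 neonicotinoids were used at 10 μM, a dose that was not cytotoxic. The controls were 49 libraries from cultures given the solvent, dimethylsulphoxide (vehicle). The cultures were mixed: the study describes an antimitotic step and a minority of cells that were not neurons. Fewer cells of a type and less RNA per cell cannot be told apart in such bulk samples. Nothing in the labels ties a vehicle library to a separate animal or preparation, so p-values measure the spread between these libraries, which may be technical in part.

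Nicotinic receptors are pentameric cation channels opened by acetylcholine. In insects they carry most fast excitatory transmission in the brain, and neonicotinoids act on them as agonists. Mammalian cortex uses mainly receptors of α4 and β2 subunits and receptors of α7 subunits, on which neonicotinoids act more weakly. The 5 molecules differ in named parts. Clothiandin, Imidacloprid and Thiamethoxam carry a nitroguanidine-type group, and Acetamiprid and Thiacloprid a cyanoamidine group. The aromatic head is a chloropyridine in Acetamiprid, Imidacloprid and Thiacloprid and a chlorothiazole in Clothiandin and Thiamethoxam. The core is closed into a ring in Imidacloprid, Thiacloprid and Thiamethoxam and open in Acetamiprid and Clothiandin. Thiamethoxam is known to be converted to clothianidin in insects and mammals.

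The deposited values are deviations of each library from the median of each gene, on a log scale, after the authors' removal of batch effects. They are given here as log2, so that 1.00 is a doubling relative to the middle of the screen. The table held 13304 genes. Expression levels came from another table of counts, in which 4 vehicle libraries held between 2778615 and 7833440 counts. The depth of the libraries of the screen is unknown. In those 4 vehicle libraries the neuronal markers Tubb3 and Stmn2 stood at 2475 and 2277 CPM (counts scaled to library size), the astrocyte marker Slc1a2 at 347 CPM and the microglial marker C1qc at 9.05 CPM, while the endothelial marker Cldn5 had no count.

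The genes of the receptors themselves were examined first. Of 16 genes of nicotinic subunits, 6 were in the table of the screen. As counts per kilobase of exon scaled to library size (RPKM, exon lengths from GENCODE on mm9), Chrnb2, which encodes β2, was the most abundant in vehicle cultures at 19.7 ± 1.26 (SD, n = 4). Chrna4, which encodes α4, followed at 8.26 ± 1.17. Chrna7, which encodes α7, stood at 2.98 ± 1.42, and Chrna5, an accessory subunit, at 2.87 ± 0.379, so that this pair did not differ beyond their spread. Chrna3 was at 1.71 ± 0.371 and Chrnb1, the β subunit of muscle receptors, at 0.442 ± 0.0979. The other 10 subunits had between 0 and 3 counts in any of the 4 libraries, with Chrna6, Chrna9, Chrna10, Chrnb3, Chrnd and Chrng at 0 in all of them. A count of 0 covers counting error only and allows up to 3 counts of a library.

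None of the 6 subunits passed the test (limma, adjusted p between 0.936 and 0.997), and the intervals below give the changes that the data allow. Chrna4 (mm9 chr2:180753085-180778251) had deviations of -0.06 in Acetamiprid, -0.17 in Clothiandin, -0.31 in Imidacloprid, -0.03 in Thiacloprid and 0.03 in Thiamethoxam, and the vehicle libraries ran from -0.76 over a median of -0.06 to 0.49. All 5 lay inside the vehicle range, and the mean difference of -0.03 had a 95% confidence interval of -0.27 to 0.22. Chrnb2 (chr3:89557370-89568554) had -0.18 in Acetamiprid, 0.10 in Clothiandin, 0.06 in Imidacloprid, -0.11 in Thiacloprid and -0.14 in Thiamethoxam, against -0.23 to 0.55 with a median of 0.07 in vehicle. Here 4 of 5 libraries were below the vehicle median, with a mean difference of -0.12 (interval -0.27 to 0.02). These intervals were the narrowest among the 6 subunits, and both genes were the most abundant of them.

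Chrna7 (chr7:70243578-70357455) spread more widely. It had -0.35 in Acetamiprid, -0.14 in Clothiandin, 0.95 in Imidacloprid, 0.19 in Thiacloprid and 0.26 in Thiamethoxam, and the vehicle libraries ran from -0.60 to 0.94 with a median of 0.02. The Imidacloprid library was just above all 49 vehicle libraries, and the other 4 were inside their range. Imidacloprid minus vehicle was 0.95 for Chrna7 (interval 0.38 to 1.52, adjusted p = 0.566), and the mean difference of the 5 chemicals was 0.18 (interval -0.11 to 0.46). Without Imidacloprid that mean was -0.02. Chrnb1, the least abundant of the 6, was lowest in Imidacloprid at -1.21, below the vehicle minimum of -1.06, and was 0.81 in Thiamethoxam, 0.44 in Acetamiprid, -0.42 in Thiacloprid and -0.70 in Clothiandin. Its mean difference was -0.32 (interval -0.85 to 0.21). Chrna3 and Chrna5 lay inside the vehicle range in all 5 libraries, with mean differences of 0.10 (interval -0.39 to 0.60) and 0.12 (interval -0.16 to 0.41).

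**Figure D1:**
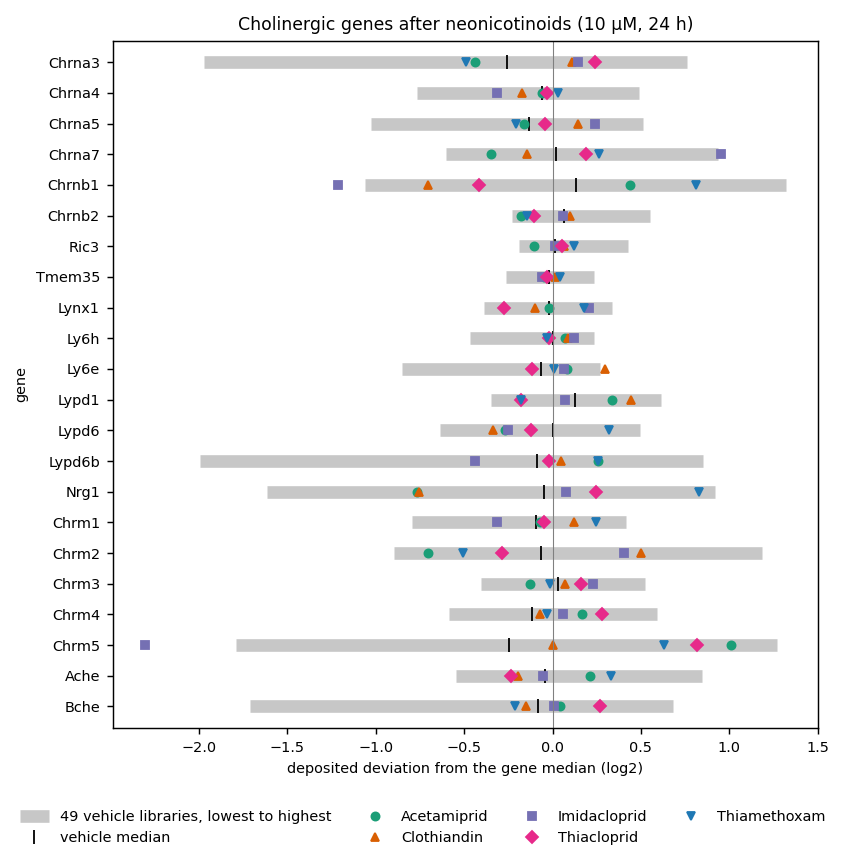
Deposited deviation (log2, horizontal axis) of the 22 cholinergic genes in the table of the screen (vertical axis). Grey bars run from the lowest to the highest of 49 vehicle libraries, ticks mark the vehicle median, and coloured symbols are the 5 neonicotinoid libraries. Most symbols sit on the bars, and the symbols outside them are Imidacloprid for Chrna7, Chrnb1 and Chrm5 and Clothiandin for Ly6e.

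Partners of the receptor gave the same reading. Of the 11 listed symbols of assembly factors and Ly6-type prototoxins (Tmem35 and Tmem35a name a single gene), 9 were measured and none passed the test. The chaperones Ric3 and Tmem35, which help α7 receptors to fold, had mean differences of -0.01 (interval -0.15 to 0.12) and -0.02 (interval -0.13 to 0.10). The prototoxins Lynx1 and Ly6h, which bind receptors at the membrane, had 0.05 (interval -0.13 to 0.22) and 0.05 (interval -0.08 to 0.17). Ly6e was 0.30 in Clothiandin, above the vehicle maximum of 0.27, and between -0.12 and 0.08 in the other 4 libraries. For Lypd1, Lypd6, Lypd6b and Nrg1 the mean differences lay between -0.09 and 0.15.

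Of 12 other cholinergic genes 7 were measured, namely all 5 muscarinic receptors and both cholinesterases. Chat, Slc18a3 and Slc5a7, which make and transport acetylcholine, were outside the table of the screen and had at most 7 counts in any of the 4 vehicle libraries with counts. Chrm4 was above the vehicle median in 5 of 5 libraries, with a mean difference of 0.17 (interval -0.06 to 0.39, adjusted p = 0.948). Over all genes, 4.5% were above the vehicle median in all 5 libraries. Chrm5 was -2.31 in Imidacloprid, below the vehicle minimum of -1.79, while Acetamiprid had 1.01, Thiacloprid 0.82, Thiamethoxam 0.63 and Clothiandin 0.00178. Chrm5 was a rare transcript, at 1.29 ± 0.730 CPM (SD, n = 4). Acetylcholinesterase, Ache, had a mean difference of -0.01 (interval -0.31 to 0.28) and Bche one of 0.14 (interval -0.30 to 0.57). The mean differences of Chrm1, Chrm2 and Chrm3 were 0.08, -0.10 and 0.02. For each chemical against vehicle, 0 of 110 tests on the 22 genes passed. Of these tests 3 (2.73%) had an unadjusted p under 0.05, beside 3.06% to 5.81% of all genes by chemical. All 3 were in Imidacloprid (Chrna7, Chrnb1 and Chrm5), where the share of all genes was 5.81%.

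Across all genes, the 5 neonicotinoids together were not separated from vehicle. limma called 0 of 13304 genes at an adjusted p under 0.05, a share of 0%, and the smallest adjusted p was 0.650. At an unadjusted p under 0.05 there were 722 genes (5.43%), of which 319 (2.4%) were higher and 403 (3.03%) lower. The count of 722 became 723 with a variance trend and 716 with robust empirical Bayes, again with 0 called. The 95% confidence interval of the mean difference had a half-width of 0.24 for the median gene, which is 1.18-fold, and of 0.57 for the gene at the 90th percentile.

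The genes with the smallest p are given as values, since none passed. Among those higher with the neonicotinoids, Nelfe, a subunit of the factor that pauses RNA polymerase, had 0.04 in Acetamiprid, 0.26 in Clothiandin, 0.86 in Imidacloprid, 0.53 in Thiacloprid and 1.35 in Thiamethoxam, against -1.41 to 0.80 in vehicle. Imidacloprid and Thiamethoxam were above the vehicle range and the other 3 inside it. Eci2, an enzyme of fatty acid breakdown, had a mean difference of 0.99 (interval 0.42 to 1.56), A430035B10Rik 0.89 (interval 0.38 to 1.40), the Ras effector Rin1 0.50 (interval 0.21 to 0.79) and Ubxn4, a factor of protein degradation at the endoplasmic reticulum, 0.20 (interval 0.08 to 0.31). All 5 libraries were above the vehicle median for each of these 5 genes, as for 4.5% of all genes. The genes were picked by their p, so this agreement follows in part from the choice. Among those lower, the interleukin 17 receptor Il17ra had -0.62, -0.73, -0.29, -0.49 and -1.11 in Acetamiprid, Clothiandin, Imidacloprid, Thiacloprid and Thiamethoxam, and vehicle ran from -1.01 to 0.71. The secreted kinase Pkdcc had a mean difference of -0.47, the KDEL receptor Kdelr1 -0.22, the tetraspanin Tspan15 -0.69 and the zinc finger gene Zfp953 -1.13. For these 5 genes 0 or 1 library was above the vehicle median, which the choice by p also favours, and every adjusted p was 0.650. Zfp953 and A430035B10Rik were rare in the 4 vehicle libraries with counts, at 1.19 and 2.29 CPM.

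Because an agonist of a cation channel may depolarize neurons, genes that follow neuronal activity were examined. Bdnf, a neurotrophin induced by calcium entry, had 0.29 in Acetamiprid, 0.94 in Clothiandin, 0.69 in Imidacloprid, 0.60 in Thiacloprid and 0.35 in Thiamethoxam, and the vehicle libraries ran from -0.84 over a median of -0.04 to 2.41. All 5 were above the vehicle median and inside the vehicle range. The mean difference was 0.53 (interval 0.09 to 0.96), with an unadjusted p of 0.0179 and an adjusted p of 0.799. Fos, the prototype of an immediate early gene, had 0.39, 0.54, 1.28, 0.39 and -0.18 in the same order of chemicals, a mean difference of 0.44 (interval -0.19 to 1.06). Npas4, a transcription factor induced by calcium, had 0.53, 0.59, 0.64, 0.56 and -0.14, a mean difference of 0.34 (interval -0.23 to 0.90). For both genes the Thiamethoxam library alone was below the vehicle median.

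None of the activity genes named here passed, and the mean differences of the remaining ones did not share a direction. Crh, a neuropeptide, had -0.76 in Acetamiprid and 1.90 in Clothiandin, the latter above the vehicle maximum of 1.78, with 0.64, 0.59 and 0.51 in Imidacloprid, Thiacloprid and Thiamethoxam. Crh was a rare transcript, at 1.38 CPM with 4 to 9 counts in the 4 vehicle libraries with counts. Arc, a cytoskeletal protein of active synapses, was -1.28 in Imidacloprid, below the vehicle minimum of -1.23, and between -0.30 and 0.22 in the other 4. Vgf, Nr4a1, Fosb and Egr1 had mean differences of 0.34, 0.23, 0.15 and -0.11. Imidacloprid thus held the highest Fos of the 5 and the lowest Arc.

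Gene lists were compared by counts and medians, beside a median difference of -0.000672 over all genes. Of the 40 immediate early genes measured, 0 were called. At an unadjusted p under 0.05, 3 (Nr4a3, Gadd45g and Per1) were higher (7.5%, beside 2.4% of all genes). The list median was 0.09, and 26 of 40 differences were above 0. Of 17 secreted factors that depend on activity, 0 were called. At an unadjusted p under 0.05, 2 (Bdnf and Sst) were higher (11.8%, beside 2.4%). Sst is also among the markers of GABAergic interneurons given below. The list median was 0.22, and 15 of 17 differences were above 0. By library that list stood at 0.64 in Imidacloprid, 0.39 in Clothiandin, 0.25 in Thiacloprid, 0.10 in Acetamiprid and -0.04 in Thiamethoxam. All 5 lay within the range of vehicle libraries, -0.46 to 1.22. Without Imidacloprid the median was 0.06, and against other chemicals at 10 μM it was 0.11.

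Genes of the integrated stress response, which the transcription factor ATF4 induces under amino acid shortage or stress of the endoplasmic reticulum, had the largest share at an unadjusted p under 0.05 among the lists of more than 10 genes. Of 19 genes measured 0 were called, and 7 (36.8%) were higher with an unadjusted p under 0.05, against 2.4% of all genes. They were Atf4, Asns, Chac1, Slc7a5, Atf5, Stc2 and Aldh18a1. Slc7a5, an amino acid transporter, had a mean difference of 0.21 (unadjusted p = 0.00223, adjusted p = 0.650) and was above the vehicle median in 5 of 5 libraries. The list median was 0.21 against vehicle, and 18 of 19 differences were above 0. Relative to the middle of the screen, the median over the list was -0.12 for the vehicle means and 0.09 for the neonicotinoid means. Part of the difference thus lies in low vehicle values, and genes of a list are not independent. Other lists had 17 of 19 (cholesterol synthesis), 15 of 17 (secreted factors) and 5 of 16 (xenobiotic enzymes) above 0. The median difference over all genes was -0.000672. By library the ATF4 median was 0.44 in Clothiandin, 0.20 in Thiacloprid, 0.18 in Imidacloprid, 0.14 in Thiamethoxam and 0.04 in Acetamiprid. Vehicle ran from -0.33 to 0.40. Clothiandin was above all vehicle libraries. Against the other chemicals at 10 μM the list median was 0.07.

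Markers of other cells gave 0 calls in the class comparison. The median of the astrocyte list was 0.17 in Acetamiprid, -0.71 in Clothiandin, -0.26 in Imidacloprid, -0.21 in Thiacloprid and 0.01 in Thiamethoxam. The median of the microglial list was 0.11, -0.67, 0.22, -0.37 and -0.17 in the same order. Clothiandin was the lowest of the 5 for both, and all 5 lay within the vehicle ranges of -0.98 to 0.61 and -0.78 to 0.83. In Clothiandin Gfap, a filament protein of astrocytes, was -1.28 and C1qa, a complement gene of microglia, -1.92, both below the vehicle minima of -1.16 and -1.39. Of 6 astrocyte markers 1 was lower at an unadjusted p under 0.05 and 0 were called. Of 5 microglial markers 2 were lower and 0 called, beside 3.03% of all genes lower at that p. Of 9 markers of GABAergic interneurons 2 (22.2%) were higher at that p and 0 called, beside 2.4% of all genes. By library their median was -0.04 in Acetamiprid, 0.33 in Clothiandin, 0.15 in Imidacloprid, 0.07 in Thiacloprid and 0.01 in Thiamethoxam, within the vehicle range of -0.46 to 0.90. Olig1 and Mog, of the oligodendrocyte lineage, had mean differences of -0.22 and 0.32. The list medians of the class comparison were -0.19 for astrocytes, -0.08 for microglia, -0.05 for excitatory neurons, 0.07 for GABAergic interneurons, -0.18 for dividing cells, -0.04 for the oligodendrocyte lineage, -0.16 for fibroblasts and 0.27 for the 2 endothelial and mural genes measured. The median over the 9 neuronal markers was between -0.06 and 0.0044 in each of the 5 libraries. The part of these markers in the other lists was not tested.

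The remaining lists gave no call. Their medians in the class comparison were 0.00707 for sodium and calcium channels, 0.01 for glutamate receptors, 0.07 for GABA-A receptors, 0.03 for calcium signalling, -0.03 for xenobiotic enzymes, -0.03 for NRF2 targets, 0.00673 for heat shock genes, -0.11 for metallothioneins and the zinc exporter, 0.00256 for p53 targets, 0.07 for cholesterol synthesis and 0.08 for contractile genes. Metallothionein Mt2 was below the vehicle median in 5 of 5 libraries, with -0.01 in Acetamiprid, -0.47 in Clothiandin, -1.23 in Imidacloprid, -0.45 in Thiacloprid and -0.69 in Thiamethoxam (adjusted p = 0.650). Imidacloprid and Thiamethoxam lay below the vehicle minimum of -0.68. In all, 4.66% of genes were below the vehicle median in all 5. Transcripts of the mitochondrial genome were outside the table.

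**Figure D2:**
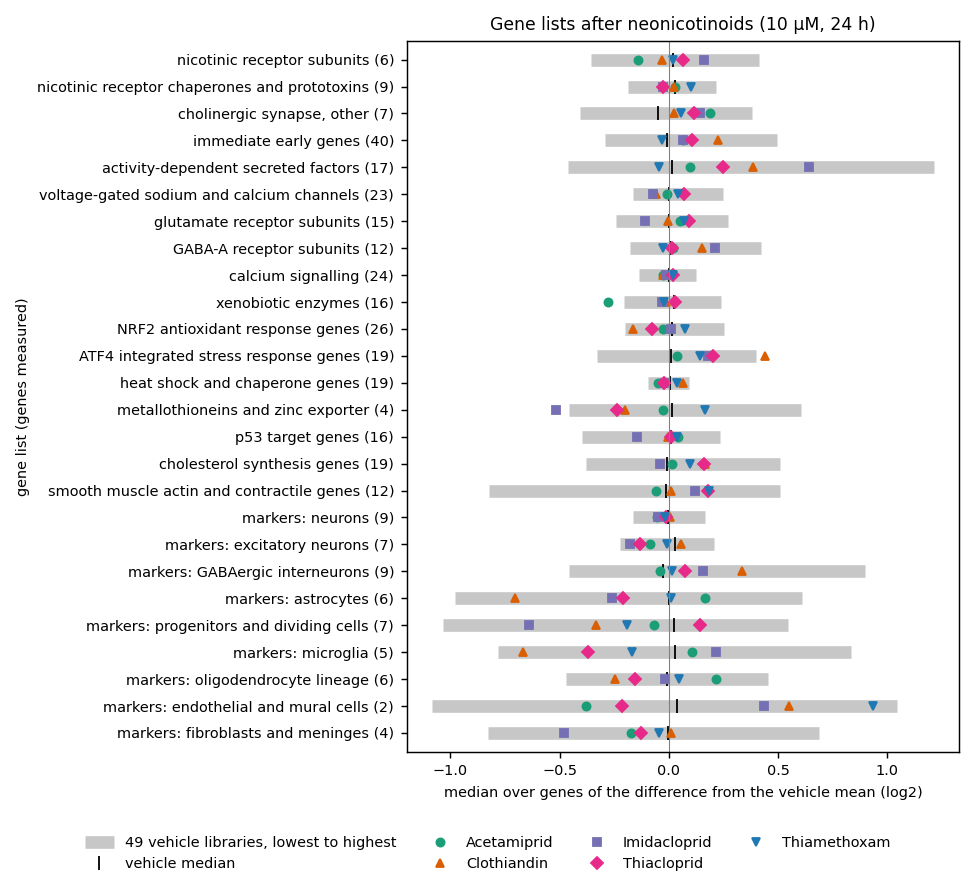
Median over the genes of each list (vertical axis, genes measured in parentheses) of the difference from the vehicle mean (log2, horizontal axis). Grey bars run from the lowest to the highest of 49 vehicle libraries, ticks mark the vehicle median, and coloured symbols are the 5 neonicotinoids. Clothiandin is beyond the vehicle bar for ATF4 genes at 0.44, Acetamiprid for xenobiotic enzymes at -0.28 and Imidacloprid for metallothioneins at -0.52.

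The distance of each library from vehicle was measured as the root mean square of its differences from the vehicle mean over all genes. It takes in the spread between libraries as well as any response. It was 0.359 for Acetamiprid, 0.373 for Clothiandin, 0.406 for Thiamethoxam, 0.410 for Thiacloprid and 0.415 for Imidacloprid. The vehicle libraries ran from 0.264 to 0.526 with a median of 0.390, each measured from the mean of the others, and all 5 neonicotinoids lay among them. The mean was 0.393 ± 0.0251 (SD) for the 5 and 0.382 ± 0.0454 (SD) for the 49, a difference of 0.0102 (two-sided exact permutation test over 3162510 relabellings, p = 0.628). A single vehicle library stood apart at 0.526, the next being 0.436. Without it the difference was 0.0132 (exact permutation p = 0.516). For 265 libraries of other chemicals at 10 μM the median was 0.400. Pyridaben and Fenpyroximate, both at 0.1 μM, were grouped together by the authors on their expression changes, yet stood at 0.294 and 0.494. A distance inside the vehicle range therefore does not show that a chemical had no effect.

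**Figure D3:**
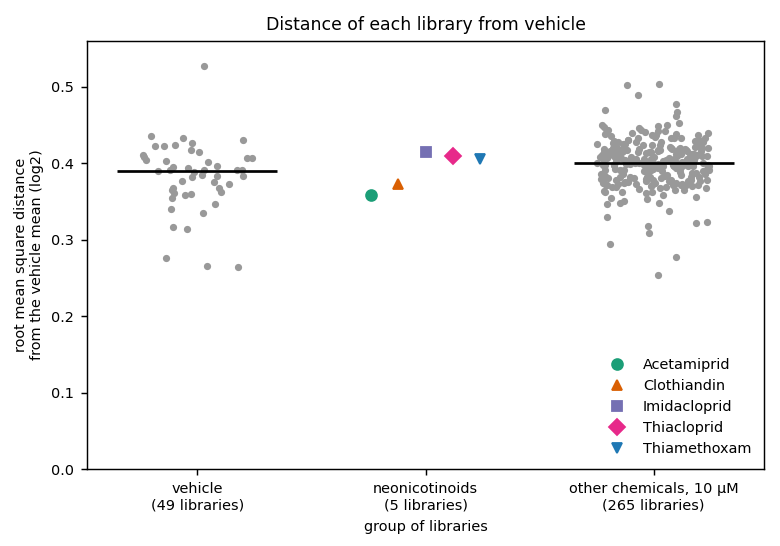
Root mean square distance of each library from the vehicle mean (log2 units, vertical axis) for 49 vehicle libraries, the 5 neonicotinoids and 265 libraries of other chemicals at 10 μM. Lines mark medians of 0.390 for vehicle and 0.400 for other chemicals. The neonicotinoids sit between 0.359 and 0.415, inside both clouds.

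Each chemical was then compared with vehicle on its own, its spread being assumed to be that of vehicle libraries, with adjustment over all genes and the 5 chemicals together. Thiacloprid had 5 calls (0.0376% of genes), Thiamethoxam 3 (0.0225%), Imidacloprid 1 (0.00752%), and Acetamiprid and Clothiandin 0 (0%). At an unadjusted p under 0.05 the counts were 734, 686, 773, 407 and 484 genes in that order, or 5.52%, 5.16%, 5.81%, 3.06% and 3.64%. limma with a variance trend and with robust empirical Bayes also called 0 genes for Acetamiprid and Clothiandin, while Clothiandin had 3 calls with other chemicals as the reference. The interval of a single library had a half-width of 0.51 for the median gene, or 1.42-fold.

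The largest rise followed Thiacloprid. Ddx56, which encodes a nucleolar RNA helicase of ribosome assembly (mm9 chr11:6158922-6167775, minus strand), had a deviation of 2.93 in Thiacloprid, 0.03 in Acetamiprid, -0.00289 in Clothiandin, 0.18 in Imidacloprid and -0.54 in Thiamethoxam. Vehicle libraries ran from -0.62 to 0.49. Thiacloprid stood above every other of the 393 libraries, while the other 4 neonicotinoids were inside the vehicle range. The difference from vehicle was 2.98 (interval 2.45 to 3.51, adjusted p = 1.44e-10). Ogdh, the E1 subunit of the 2-oxoglutarate dehydrogenase of the citric acid cycle (chr11:6191636-6256645, plus strand), rose by 1.22 (interval 0.89 to 1.55, adjusted p = 4.48e-05). It was 1.22 in Thiacloprid, between -0.29 and 0.16 in the other 4, and -0.36 to 0.46 in vehicle. Neither gene is rare, with 31.1 ± 9.22 CPM for Ddx56 and 142 ± 15.8 CPM for Ogdh (SD, n = 4). In the comparison with vehicle both stayed called under every alternative that kept them among the genes tested.

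These 2 genes are near neighbours, and the genes of the screen around them were examined after their values had been seen. Tmed4, a cargo receptor of the early secretory pathway (chr11:6170372-6174873, minus strand), lies between them and was 0.73 in Thiacloprid, against -0.29 to 0.40 in vehicle. Zmiz2, a coactivator of transcription (chr11:6289077-6306165, plus strand), follows Ogdh and was 0.56, against -0.38 to 0.18 in vehicle. Neither passed the test (adjusted p = 0.248 and 0.122), although Zmiz2 did when other chemicals at 10 μM were the reference (adjusted p = 0.0096). In all 4 of these genes, which follow each other in the table of the screen, Thiacloprid was the highest of the 393 libraries. Thiamethoxam was at -0.54 for Ddx56 and -0.29 for Ogdh, inside the vehicle range. For Tmed4 it was at -0.46, below the vehicle minimum of -0.29 and the second lowest of the 393 libraries. For Zmiz2 it was not low, at -0.06 and rank 289 of 393. The starts of Ddx56 and Zmiz2 are 121.3 kb apart. On the other side of Ddx56, Nudcd3 ranked 3 of 393 at 0.23, against a vehicle maximum of 0.20, and beyond Zmiz2 the values of Ppia, H2afv and Purb were 0.73, -0.20 and -0.00745, all within vehicle ranges. Over the whole table, Thiacloprid was the highest library for 30 genes and the lowest for 29. These counts were 36 and 19 for Imidacloprid, 35 and 28 for Thiamethoxam, 11 and 7 for Acetamiprid and 8 and 14 for Clothiandin. The 4 genes lie on both strands and whether the counting used strand is not given in the sources used here.

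**Figure D4:**
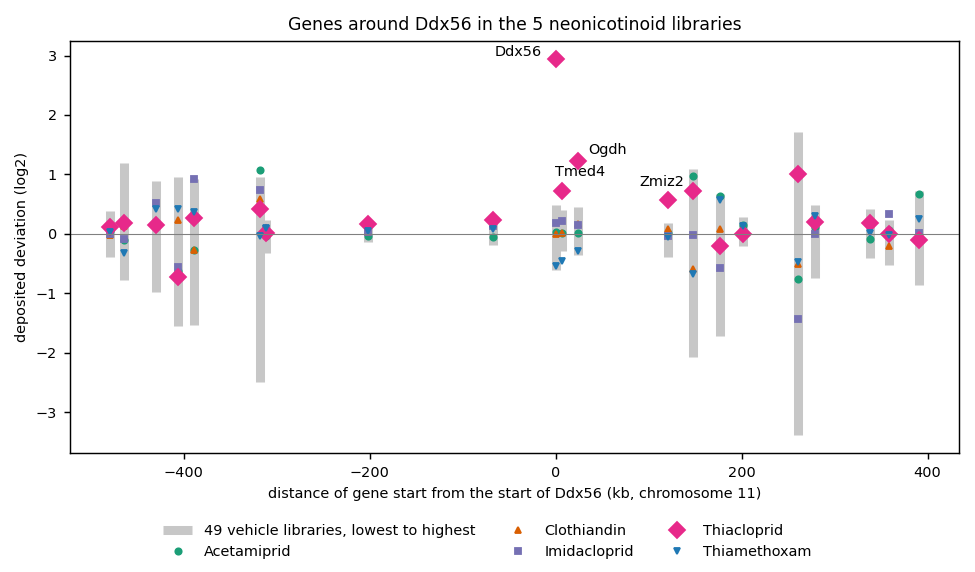
Deposited deviation (log2, vertical axis) of the genes of the screen by the distance of their start from the start of Ddx56 (kb on chromosome 11, horizontal axis). Grey bars run from the lowest to the highest of 49 vehicle libraries and coloured symbols are the 5 neonicotinoids. Thiacloprid is above the bar for Ddx56 at 2.93, Tmed4 at 0.73, Ogdh at 1.22 and Zmiz2 at 0.56, and slightly above it for Nudcd3 at 0.23, and Thiamethoxam is below the bar for Tmed4 at -0.46.

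The falls called for single chemicals were in genes at 12.6 CPM or less in vehicle cultures. With Thiacloprid, Kdelr3, a receptor that returns proteins to the endoplasmic reticulum, fell by 3.14 on the log2 scale (adjusted p = 0.00176). It was the lowest of the 393 libraries for this gene at -3.18, whereas Thiamethoxam was above the vehicle maximum of 1.13 at 1.42. Kdelr3 stood at 2.00 ± 0.635 CPM in vehicle (SD, n = 4). Ldhal6b, a lactate dehydrogenase-like gene, fell by 3.58 (adjusted p = 0.0320). It was -3.74 in Thiacloprid, and the lowest vehicle library was nearly as low at -3.43, with a vehicle median of -0.05. Rab10os, named as an opposite-strand transcript of Rab10, fell by 1.39 (adjusted p = 0.0361). As low or lower than the Thiacloprid library were 4 other libraries for Ldhal6b and 2 for Rab10os, none of them vehicle. With no statement on strand, reads of Rab10os and of an overlapping gene cannot be told apart.

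With Imidacloprid the single call was Mxra8, a membrane protein linked to matrix remodelling, which fell by 2.64 (interval of the difference -3.62 to -1.66, adjusted p = 0.0283). It was -2.60 in Imidacloprid, -1.14 in Thiacloprid, 0.12 in Acetamiprid, 0.17 in Clothiandin and 0.81 in Thiamethoxam, with vehicle between -1.15 and 1.22. With Thiamethoxam, Psmg4, an assembly chaperone of the proteasome, fell by 4.37, Trnau1ap, a factor for selenocysteine tRNA, fell by 3.10, and Axin2, a target and feedback inhibitor of Wnt signalling, fell by 0.93 (adjusted p = 0.0320 for each). Thiamethoxam was the lowest of the 393 libraries for all 3. In vehicle Psmg4 was at 6.11 CPM, Trnau1ap at 7.49 CPM, Axin2 at 12.6 CPM and Mxra8 at 2.64 CPM. When other chemicals at 10 μM gave the reference and the spread, Mxra8, Ldhal6b, Psmg4, Trnau1ap and Axin2 no longer passed, with adjusted p of 0.148, 0.0642, 0.0956, 0.0914 and 0.403.

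All 10 pairs of neonicotinoids were compared at the same dose and time, with p adjusted over all genes and the 10 pairs. Each side of a pair is 1 library, so the spread behind every p is borrowed from the vehicle libraries and no difference has a replicate check. Of 133040 tests 9 passed (0.00676%), and each of them involved Thiacloprid. Ddx56 separated Thiacloprid from each of the other 4. The difference was -2.90 for Acetamiprid minus Thiacloprid, -2.94 for Clothiandin minus Thiacloprid, -2.76 for Imidacloprid minus Thiacloprid and 3.47 for Thiacloprid minus Thiamethoxam, with adjusted p between 1.53e-07 and 3.61e-05. Ogdh was higher in Thiacloprid than in Thiamethoxam by 1.51 (adjusted p = 0.000679), and Acetamiprid minus Thiacloprid was -1.21 (adjusted p = 0.0491), the latter at 0.0569 once libraries were centred on their medians. Kdelr3 differed most, at -4.59 for Thiacloprid minus Thiamethoxam (interval -6.00 to -3.19, adjusted p = 0.000679). The labels number the Thiacloprid and Thiamethoxam libraries one after the other. Whether they shared a batch is not given, and what the batch correction added to their differences was not tested. Axin2 was higher in Thiacloprid than in Thiamethoxam by 1.29, and Tbl3, a component of the machinery that processes ribosomal RNA, was higher in Imidacloprid than in Thiacloprid by 2.23 (adjusted p = 0.0491 for each). These last 2 did not pass without the vehicle library that stood apart (adjusted p = 0.0512 for each) or with centred libraries (0.0507 for Axin2 and 0.0569 for Tbl3).

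The other 6 pairs gave 0 calls in limma's test, with 451 to 758 genes at an unadjusted p under 0.05. Among them were Clothiandin and Thiamethoxam, related as product and parent, with 569 such genes (4.28%). A missing call does not show that 2 chemicals acted alike: the interval of a difference between 2 libraries had a half-width of 0.71 for the median gene, or 1.64-fold. On the 22 cholinergic genes, 0 of 220 pair tests passed. Of these tests 11 (5%) had an unadjusted p under 0.05, beside 3.39% to 5.86% of all genes by pair. The smallest was for Chrna7 between Acetamiprid and Imidacloprid at -1.30 (interval -2.10 to -0.50, adjusted p = 0.758).

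Chemicals were next grouped by structure, with p adjusted over all genes and 3 contrasts. The nitroguanidines differed from the cyanoamidines in 2 genes (0.015%). Mmp11, a secreted protease of tissue remodelling (chr10:75385967-75400678), was 1.06 in Clothiandin, 1.14 in Imidacloprid and 1.06 in Thiamethoxam, but -1.87 in Acetamiprid and -2.87 in Thiacloprid. The vehicle libraries ran from -1.77 to 0.81, so the 3 nitroguanidines were above and the 2 cyanoamidines below all of them. The difference was 3.46 (interval 2.32 to 4.59, adjusted p = 0.00460). The second gene, Irf1, a transcription factor of interferon responses (chr11:53583516-53591876), was -0.05, 1.01 and 0.63 in Clothiandin, Imidacloprid and Thiamethoxam and -1.67 and -2.12 in Acetamiprid and Thiacloprid, with vehicle between -1.27 and 0.92. It differed by 2.42 (interval 1.52 to 3.32, adjusted p = 0.0315).

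Both genes were near the limit of detection, Mmp11 at 1.43 ± 0.453 CPM with 3 to 10 counts and Irf1 at 2.54 ± 2.48 CPM with 5 to 18 counts in the 4 vehicle libraries with counts (SD, n = 4). Over the screen 38 treated libraries were above the vehicle maximum of Mmp11 and 13 below its minimum. Each structural class rests on 2 or 3 libraries of different chemicals. Without Thiacloprid neither gene passed (adjusted p = 0.921 for both), leaving Acetamiprid as the only cyanoamidine. Without Acetamiprid the contrast had 6 calls, and without Imidacloprid or Thiamethoxam 1. With another chemical left out Mmp11 passed, at adjusted p between 0.0128 and 0.0376, and Irf1 passed only without Clothiandin. When other chemicals at 10 μM gave the spread, the adjusted p was 0.0420 for Mmp11 and 0.190 for Irf1.

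The other 2 contrasts gave 0 calls in limma's test (0%), with 566 genes at an unadjusted p under 0.05 for chloropyridines minus chlorothiazoles and 390 for ring-closed minus open cores. The half-width of the interval was 0.46 for the median gene in each contrast, which is 1.38-fold. Without Acetamiprid the aromatic head gave 2 calls and the core 1, and without Imidacloprid the aromatic head gave 1. On the 22 cholinergic genes, 0 of 66 tests passed. Beside 2.93% to 4.92% of all genes by contrast, 4 of the 66 tests (6.06%) had an unadjusted p under 0.05. Chrna7 was among these, higher in ring-closed than in open compounds by 0.71 (interval 0.19 to 1.24, adjusted p = 1.00).

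**Figure D5:**
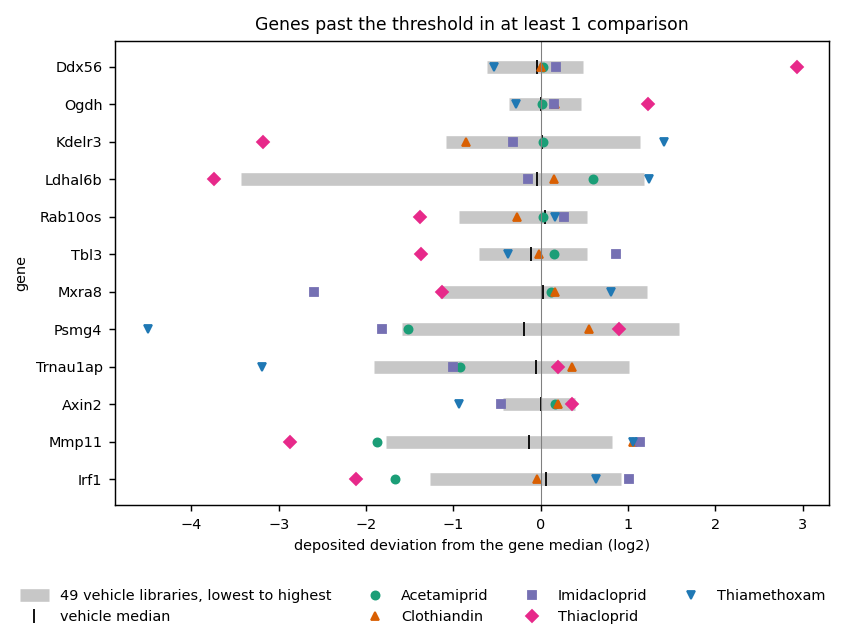
Deposited deviation (log2, horizontal axis) of the 12 genes that passed in at least 1 comparison (vertical axis). Grey bars run from the lowest to the highest of 49 vehicle libraries, ticks mark the vehicle median, and coloured symbols are the 5 neonicotinoids. Thiacloprid is far above the bar for Ddx56 at 2.93, and for Mmp11 the 3 nitroguanidines lie above the bar and the 2 cyanoamidines below it.

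The class was also set against 252 other chemicals at 10 μM, each entering as the median of its libraries. limma called 0 of 13304 genes (0%), with a smallest adjusted p of 0.313 and 560 genes (4.21%) at an unadjusted p under 0.05. With single libraries in place of medians the count was again 0, and without Thiamethoxam it was 1. Over 5121 variably expressed genes the 10 pairs had Spearman correlations between -0.07 and 0.06, with a median of 0.0136. The median was 0.0221 for 1176 pairs of vehicle libraries, 0.0159 for 19 pairs of libraries of the same chemical other than topotecan, 0.264 for pairs of topotecan libraries, and 0.00694 for pairs of other chemicals at 10 μM. The highest was 0.544 for the same chemical other than topotecan and 0.175 for vehicle. All these libraries share the gene centring and the batch correction of the table, and genes are not independent replicates. The closest pair was Clothiandin and Imidacloprid at 0.06 and the most opposed was Thiacloprid and Thiamethoxam at -0.07. The highest correlation of any of the 5 with another chemical at 10 μM was 0.121, between Clothiandin and dichlorprop, a herbicide. With a vehicle library it reached 0.205.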

How the data were processed

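Poly-A RNA of treated cortical cultures was sequenced by the authors, aligned with TopHat to mm9 and summarised per gene symbol. The deposited table of the screen holds log10 deviations: the authors log-transformed RPKM values, quantile normalised them, centred each gene and removed culture and sequencing batches with a mixed model. They were multiplied to log2 here. Deposited counts from another table gave CPM and, with exon lengths of the mm9 annotation (12388 genes of the screen matched by symbol), RPKM of 4 vehicle libraries. Floors and counts cover counting error only.

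Differences were tested with limma 3.58.1 in R 4.3.3 without a variance trend, with Benjamini-Hochberg adjustment and a threshold of 0.05. A chemical with 1 library was assumed to vary like the vehicle libraries. Permutation tests and figures used Python 3.11.15, numpy 2.4.6, pandas 2.3.3 and matplotlib 3.10.9. The scripts were tested on simulated data.

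Named genes were all measured cholinergic genes, 9 activity genes, the genes called in any comparison and, where none was called, those with the 5 smallest p in each direction. Markers and neighbours of Ddx56 were named after their values were seen. The neonicotinoids and the lists were chosen with earlier results of these data known. Alternatives changed the variance model, genes tested, centring, reference, adjustment, threshold and the chemicals included. A setting without the vehicle library farthest from the others was added after seeing the data. The labels name no batches of the screen.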

Additional observations from a re-analysis of the deposited data

Results flagged for a closer look

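Among 83 sets of 5 neonicotinoid values (named genes and list medians), 6 had a library far from the other 4, by the gap to its nearest neighbour as a share of the range of the 5. Chance gives about 1 such set in 20 where sets are not chosen by their values. Some of the 83 were so chosen, namely the genes with the smallest p, the called genes and neighbours of Ddx56. The 6 of 83 can therefore not be read against that rate. That rate does not apply to Ddx56 and Ldhal6b, named as calls for Thiacloprid, or to Zmiz2, named after its values were seen, and their shares are a description. The share was 0.794 for Ddx56, 0.788 for Zmiz2 and 0.721 for Ldhal6b, each time with Thiacloprid apart. It was 0.861 for Npas4 with Thiamethoxam apart, 0.807 for the median of the xenobiotic enzymes with Acetamiprid apart and 0.751 for the median of the p53 targets with Imidacloprid apart. The xenobiotic median of Acetamiprid, -0.28, was below the lowest vehicle library at -0.21, while the p53 median of Imidacloprid, -0.15, was inside the vehicle range.

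Some differences between chemicals at the same dose passed limma's test of the difference itself. They were -2.90 for Ddx56 and -1.21 for Ogdh in Acetamiprid minus Thiacloprid, -2.94 for Ddx56 in Clothiandin minus Thiacloprid, and -2.76 for Ddx56 and 2.23 for Tbl3 in Imidacloprid minus Thiacloprid. In Thiacloprid minus Thiamethoxam they were 3.47 for Ddx56, -4.59 for Kdelr3, 1.29 for Axin2 and 1.51 for Ogdh. Between nitroguanidines and cyanoamidines Mmp11 differed by 3.46 and Irf1 by 2.42. Each chemical had 1 library, so none of these was repeated in a second culture.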

How the results depend on the processing

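No paired analysis was possible because the chemicals and the vehicle libraries carry no shared replicate numbers. The class called 0 genes under every alternative run. At an unadjusted p under 0.05 there were 560 to 848 of 13304 genes, and 299 where only the 5121 variably expressed genes were tested. Genes tested limited to those variably expressed gave 1 call for Clothiandin, 2 for Imidacloprid, 2 for Thiacloprid and 1 over the pairs; Ddx56 and Ogdh are not among those genes. Other chemicals as reference gave 3 for Clothiandin, 2 for Imidacloprid and 1 for Thiamethoxam, and 4 of the 9 calls against vehicle were shared with its 13. A variance trend gave 2 for Imidacloprid. Adjustment within a chemical gave 5 for Thiamethoxam, and within a pair 17 over the pairs. At an adjusted p of 0.01 there were 0 for Imidacloprid, 3 for Thiacloprid, 0 for Thiamethoxam and 1 for nitroguanidines minus cyanoamidines. Leaving out a chemical gave 0 to 6 calls for that contrast, 0 to 2 for the aromatic head, 0 to 1 for the core and 0 to 1 against other chemicals. The distance turned to -0.00318 as a median absolute deviation (exact permutation p = 0.784). Against other chemicals the list medians were -0.0171 for cholesterol synthesis, -0.0358 for contractile genes and 0.0106 for neuronal markers. Leaving out a chemical gave -0.000762 to 0.0277 for calcium signalling and -0.0449 to -0.0095 for neuronal markers. Uncalled genes near 0 changed sign: against other chemicals Chrna3 was -0.050, Ric3 0.035, Lypd1 0.095, Nrg1 -0.059 and Egr1 0.022. Leaving out a chemical gave -0.062 to 0.024 for Chrna4, -0.016 to 0.31 for Chrna7, -0.035 to 0.022 for Ric3, -0.0024 to 0.12 for Lynx1, -0.13 to 0.025 for Lypd1, -0.12 to 0.27 for Nrg1, -0.26 to 0.044 for Chrm2, -0.023 to 0.066 for Chrm3, -0.041 to 0.79 for Chrm5, -0.094 to 0.048 for Ache, -0.037 to 0.42 for Fosb and -0.37 to 0.0059 for Arc. Of 117 settings run on called genes 98 kept the call and 19 lost it, none changing sign. The cause of these changes was not tested.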

Other observations

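Several genes lay just outside the threshold for a single chemical, and are given as values chosen after they were seen. Tmem176a, a membrane protein, had a difference of -3.78 in Imidacloprid (limma, adjusted p = 0.0534) and passed with a variance trend (adjusted p = 0.0484). Ndufc2, a subunit of respiratory complex I, had -0.96 in Acetamiprid (adjusted p = 0.0599). The phospholipase gene Plcd1 had -2.34 and Ints7, a subunit of the Integrator complex, -1.62 in Thiamethoxam (adjusted p = 0.0599 for each). For Clothiandin the smallest adjusted p was 0.0818, for Lacc1 at -3.10.

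Among 24 genes of calcium signalling, 3 (12.5%) had an unadjusted p under 0.05 in the class comparison, beside 5.43% of all genes, and 0 were called. The calcineurin subunit Ppp3ca and the inositol trisphosphate receptor Itpr1 had mean differences of -0.22 and -0.30 (adjusted p = 0.650 and 0.768), and Itpr2 had 0.39 (adjusted p = 0.895). Itpr2 was a rare transcript in vehicle cultures, at 1.48 CPM. Itpr1 was below the vehicle median in 5 of 5 libraries. The dioxin-inducible enzyme Cyp1b1 had a mean difference of -0.36 (adjusted p = 0.774), with 0 of 5 libraries above the vehicle median.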
